A study of Mus musculus with 102 samples.

Results

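The loci of the Dnmt3 family were followed by bisulfite sequencing of captured DNA in mouse embryonic stem cells (ESCs). Members were all CpGs of the capture table inside an mm9 window around each of 3 genes: Dnmt3a (chr12:3800000-3920000), Dnmt3b (chr2:153470000-153520000) and Dnmt3l (chr10:77505000-77532000). There were 267 CpGs in the Dnmt3a window, 91 in the Dnmt3b window and 96 in the Dnmt3l window, 454 of the 2177608 CpGs in the table. The cells were C57BL6/J ESCs from a single homozygous clone in which loxP sites flank the catalytic exons of Dnmt3a and Dnmt3b, and this floxed background is shared by every group. In the TTKO cells, a single clone of that line, Tet1, Tet2 and Tet3 were also mutated by CRISPR. TTKO cells were measured without transduction (day 0) and after Cre protein had been transduced, on day 4, day 8, day 10, day 13, day 17 and day 29. Cre removes the floxed exons and so inactivates both enzymes, though not every allele is recombined. The wild type is the parental floxed line at day 0, with intact Tet genes and intact Dnmt3a and Dnmt3b. Wild type and TTKO therefore differ both in the Tet genes and in the clone, and these cannot be told apart. Each of the 8 groups had 3 replicates, but the table holds 1 joined column per group, so no replicate error can be given and every test below compares joined libraries, not conditions. Over the whole table the columns held between 421283985 (day 8) and 740590811 (day 17) reads on CpGs, and each CpG had at least 50 reads in every column. Day 8 was the shallowest column.

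DNMT3A and DNMT3B are the de novo DNA methyltransferases, which place methyl groups on unmethylated CpGs, and DNMT3L is a related protein without catalytic activity that binds both and stimulates them. In ESCs a short DNMT3A isoform is made from a promoter inside the Dnmt3a gene, and Dnmt3l is used mainly in germ cells and early embryonic cells. DNMT1, guided by UHRF1, copies methylation to the new strand after replication, while TET proteins oxidise methylated cytosine. Without de novo activity the level of a CpG falls by passive demethylation, as copying is incomplete.

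Stretches of neighbouring CpGs (no gap above 400 bases) that behaved differently are printed below from the plus strand of mm9, 5′ to 3′. Capitals mark the CpGs measured in the table. They were chosen to show the CpG-rich part, upstream of the internal start of Dnmt3a, of a stretch with low methylation, the CpGs after the start of Dnmt3b, the extremes of relative loss inside Dnmt3a and the largest relative loss in Dnmt3b among stretches of 5 or more CpGs, the stretch of Dnmt3a furthest below TTKO in wild type, and the stretch of Dnmt3l with most CpGs higher in wild type.
Dnmt3a, upstream of the internal start, chr12:3891135-3891434: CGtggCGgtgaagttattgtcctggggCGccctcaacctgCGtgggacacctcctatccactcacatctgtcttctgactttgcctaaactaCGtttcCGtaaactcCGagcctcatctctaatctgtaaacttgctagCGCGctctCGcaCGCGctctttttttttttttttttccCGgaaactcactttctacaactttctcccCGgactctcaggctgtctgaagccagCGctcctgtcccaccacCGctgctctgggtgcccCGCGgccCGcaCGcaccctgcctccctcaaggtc
Dnmt3a, least loss inside the gene, chr12:3849659-3849958: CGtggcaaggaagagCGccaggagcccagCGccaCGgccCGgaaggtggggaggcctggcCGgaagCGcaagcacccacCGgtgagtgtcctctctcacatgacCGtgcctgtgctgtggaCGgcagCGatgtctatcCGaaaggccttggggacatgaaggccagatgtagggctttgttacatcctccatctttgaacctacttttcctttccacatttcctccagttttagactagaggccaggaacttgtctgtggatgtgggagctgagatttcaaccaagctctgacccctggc
Dnmt3a, greatest loss, chr12:3889591-3889890: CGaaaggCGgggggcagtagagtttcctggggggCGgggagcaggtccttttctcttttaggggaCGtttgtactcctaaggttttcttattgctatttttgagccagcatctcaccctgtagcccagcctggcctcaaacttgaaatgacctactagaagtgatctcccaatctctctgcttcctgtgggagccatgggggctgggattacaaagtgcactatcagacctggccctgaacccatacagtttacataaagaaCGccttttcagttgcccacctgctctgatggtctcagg
Dnmt3a, furthest below TTKO in wild type, chr12:3834478-3834777: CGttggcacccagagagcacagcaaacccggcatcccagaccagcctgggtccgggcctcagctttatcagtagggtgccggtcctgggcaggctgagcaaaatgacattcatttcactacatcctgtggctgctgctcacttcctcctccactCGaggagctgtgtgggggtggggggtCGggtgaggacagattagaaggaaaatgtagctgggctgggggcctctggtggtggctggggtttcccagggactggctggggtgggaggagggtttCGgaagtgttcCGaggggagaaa
Dnmt3b after the start, chr2:153475524-153475823: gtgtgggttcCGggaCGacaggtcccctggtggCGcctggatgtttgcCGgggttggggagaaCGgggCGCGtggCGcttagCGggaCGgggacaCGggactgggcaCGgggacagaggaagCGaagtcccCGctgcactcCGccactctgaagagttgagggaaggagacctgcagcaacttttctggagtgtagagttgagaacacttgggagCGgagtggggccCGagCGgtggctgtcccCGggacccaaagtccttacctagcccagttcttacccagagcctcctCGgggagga
Dnmt3b, greatest loss among stretches of 5 or more CpGs, chr2:153494546-153494845: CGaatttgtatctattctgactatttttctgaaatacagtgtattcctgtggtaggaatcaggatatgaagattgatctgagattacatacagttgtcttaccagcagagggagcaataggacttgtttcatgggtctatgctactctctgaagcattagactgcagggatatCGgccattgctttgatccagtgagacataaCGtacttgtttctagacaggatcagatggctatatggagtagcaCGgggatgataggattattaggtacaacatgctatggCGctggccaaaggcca
Dnmt3l internal starts, chr10:77512587-77512886: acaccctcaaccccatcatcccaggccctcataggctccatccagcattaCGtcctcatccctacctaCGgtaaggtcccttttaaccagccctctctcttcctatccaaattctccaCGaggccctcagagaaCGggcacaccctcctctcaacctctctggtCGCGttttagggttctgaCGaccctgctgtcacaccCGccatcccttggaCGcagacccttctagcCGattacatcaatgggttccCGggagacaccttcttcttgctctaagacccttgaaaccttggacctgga
Dnmt3l higher in wild type, chr10:77511663-77511962: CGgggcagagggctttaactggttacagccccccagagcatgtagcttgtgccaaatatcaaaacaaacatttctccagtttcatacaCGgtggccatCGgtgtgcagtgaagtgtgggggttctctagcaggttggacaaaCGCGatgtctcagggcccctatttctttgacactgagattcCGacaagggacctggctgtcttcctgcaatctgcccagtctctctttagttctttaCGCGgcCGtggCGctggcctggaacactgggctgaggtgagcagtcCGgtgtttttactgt
The stretch with the least loss inside Dnmt3a starts in exon 3 of Dnmt3a-001 and all of its 12 CpGs in the printed 300 bases were measured, whereas only 5 of 8 were measured in the printed part of the stretch furthest below TTKO in wild type.

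Methylation fell at all 3 loci after Cre. The capture series has no mock-treated cells, so Cre and time in culture cannot be told apart at these loci. The mean level over the 267 CpGs of Dnmt3a started at 40.4% on day 0, then measured 38.8% (day 4), 34.8% (day 8), 31.9% (day 10), 29.1% (day 13) and 24.1% (day 17), and ended at 17.8% (day 29). At Dnmt3b the mean was 25.4%, 24.2%, 20.0%, 18.0%, 16.2%, 13.2% and 8.5% on the same days. At Dnmt3l it was 25.3%, 23.1%, 19.8%, 17.9%, 16.0%, 13.5% and 9.6%. This mean over CpGs was lower on each later day at each locus and rose between no neighbouring days. Weighted by reads, the Dnmt3l mean rose from day 4 (-1.3 points from day 0) to day 8 (-0.9 points).

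**Figure D1:**
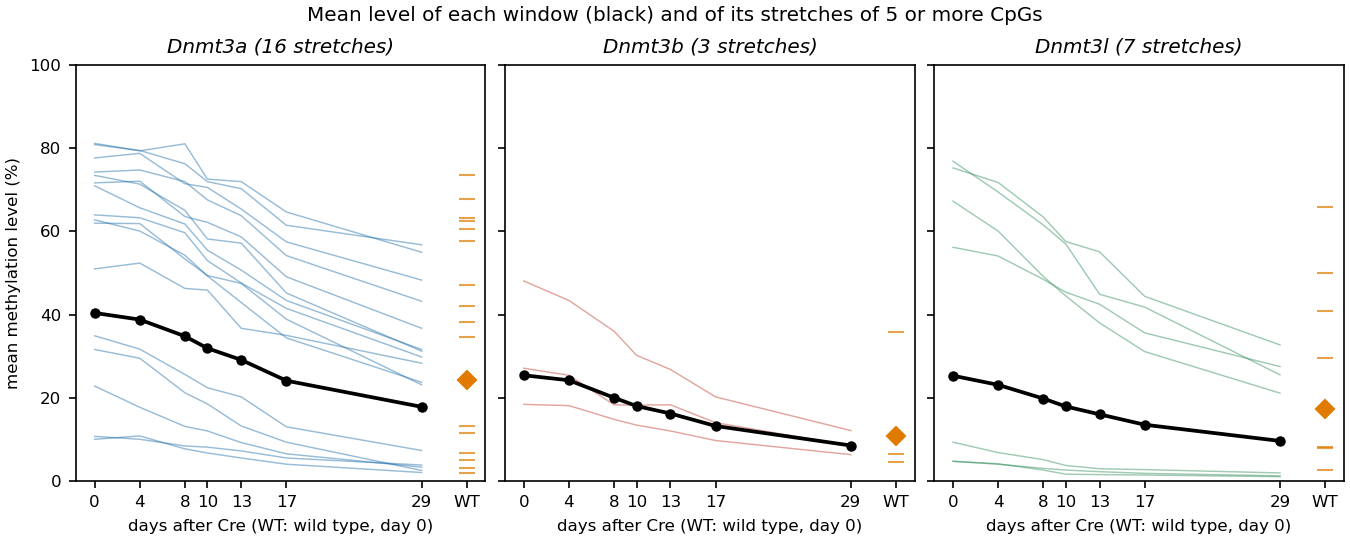
Mean methylation level (%) by day after Cre, with wild type at day 0 at the right. Black points and lines are the means over all CpGs of the window, diamonds the wild type means, thin lines and orange dashes the stretches of 5 or more CpGs. The 3 window means fell from 40.4%, 25.4% and 25.3% to 17.8%, 8.5% and 9.6%.

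Single CpGs were tested by Fisher's exact test on methylated and unmethylated reads, two-sided, with Benjamini-Hochberg adjustment over the whole table. By day 29, 313 of 454 CpGs (68.9%) were lower than at day 0, against 59.3% of all CpGs in the table: 202 of 267 at Dnmt3a, 53 of 91 at Dnmt3b and 58 of 96 at Dnmt3l. The shares were 75.7% at Dnmt3a, 58.2% at Dnmt3b and 60.4% at Dnmt3l. Where a difference of at least 10 points was also required, the counts were 179 of 267, 47 of 91 and 35 of 96, against 51.9% of the table. Dnmt3a then lay above the share of the table, Dnmt3b close to it and Dnmt3l below it. Before that, the numbers of lower CpGs were 4 on day 4 (1.55% of the table), 75 on day 8 (14.4%), 196 on day 10 (35.7%), 237 on day 13 (43.6%) and 288 on day 17 (55.7%). An over-dispersion of 0.0055 was added as an alternative, a value borrowed from the model for amplicon data and not measured in these joined columns. With it, 0 CpGs were lower on day 4 (0.147% of the table) and 35 on day 8 (6.33%). One CpG was higher at day 29 (background 0.171%), in the internal start island of Dnmt3a (chr12:3891367-3891368), with 0.0% of 246 reads methylated before Cre and 2.6% of 266 reads on day 29, and it did not pass with the added over-dispersion. Its level was 3.6% on day 4 and 2.6% in wild type. One CpG was higher on day 4 (chr2:153476747-153476748 in Dnmt3b, 69.1% to 77.7%, background 0.137%) and 1 on day 17 (chr12:3891384-3891385 in Dnmt3a, 1.0% to 5.1%, background 0.138%), and neither passed with the added over-dispersion. Weighted by reads, the day 8 difference was -4.0 points at Dnmt3a in place of -5.6, -6.9 at Dnmt3b in place of -5.4 and -0.9 at Dnmt3l in place of -5.4.

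The 2 longest stretches of Dnmt3a had low means in every column. Single CpGs in them reached 69.5% (chr12:3808844-3808845) and 56.0% (chr12:3892544-3892545) at day 0. The measured CpGs nearest its first exons, 37 CpGs at chr12:3808000-3809199 in the first intron of Dnmt3a-001, averaged 10.7% before Cre (SD over CpGs 18.9), 5.5% by day 17 and 3.8% by day 29, with wild type at 3.2%. The table holds no CpG within 500 bases of the start of Dnmt3a-001 itself. The stretch of 52 CpGs around the internal start (chr12:3891049-3893012), where transcripts Dnmt3a-201 and Dnmt3a-005 begin, averaged 10.0%, 10.8%, 7.7%, 6.7%, 5.5%, 4.0% and 2.0% from day 0 to day 29, and 2.0% in wild type. Within 500 bases of the start of Dnmt3a-201 the 29 measured CpGs averaged 3.4% at day 0 and 1.2% at day 29. The start island was therefore low in every column, including wild type at 1.3%.

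**Figure D2:**
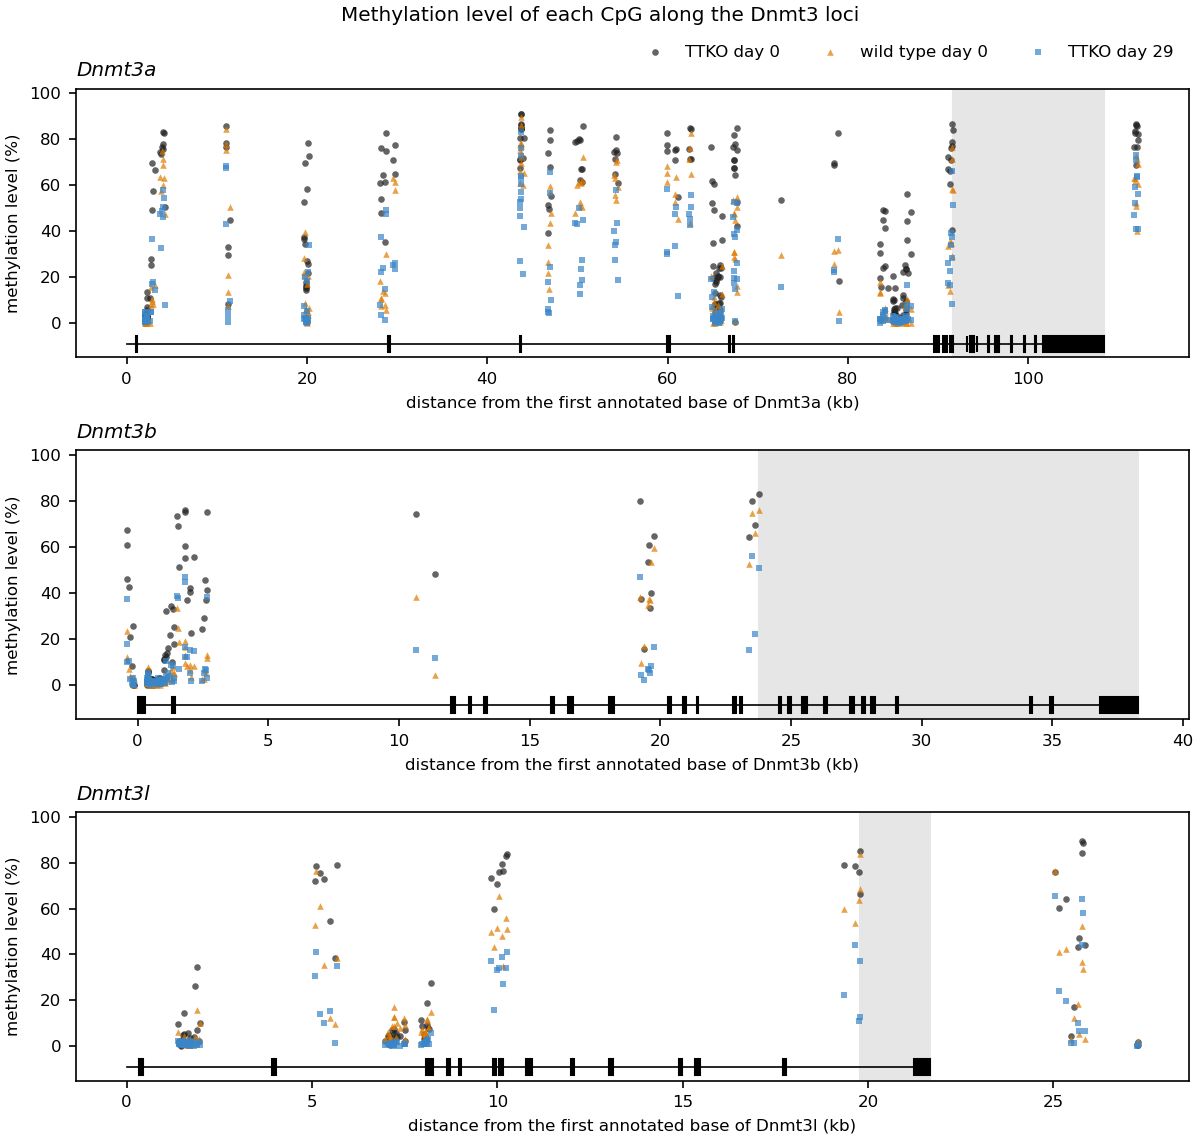
Methylation level (%) of each CpG against the distance from the first annotated base of each gene (kb), for TTKO day 0 (black circles), wild type day 0 (orange triangles) and TTKO day 29 (blue squares). Black boxes are exons of the longest protein-coding transcript, and grey marks the end of the gene after the last measured CpG. The mean over the CpGs shown fell from 40.4% to 17.8% at Dnmt3a, from 25.4% to 8.5% at Dnmt3b and from 25.3% to 9.6% at Dnmt3l between day 0 and day 29.

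The largest relative loss of a Dnmt3a stretch of 5 or more CpGs was 92.0%, at 11 CpGs in chr12:3889591-3890406, just upstream of the internal start island. That stretch averaged 31.6%, 29.5%, 21.2%, 18.5%, 13.2%, 9.3% and 2.5% from day 0 to day 29, and 6.6% in wild type. All 11 of its CpGs were lower at day 29. The intron stretch at chr12:3870845-3872011 (34 CpGs) averaged 22.8% before Cre, 13.1% on day 8, 6.5% on day 17 and 3.3% by day 29, with 5.1% in wild type, a loss of 85.6%.
Inside the gene, the stretch of 5 or more CpGs with the smallest loss was exon 3 and its surroundings (chr12:3849659-3850139, 14 CpGs), which also holds the start of Dnmt3a-004. It averaged 81.2%, 79.4%, 81.1%, 72.6%, 72.0%, 64.7% and 55.0% over the 7 days and 73.7% in wild type. The loss was 32.2% and all 14 CpGs were lower at day 29. Of its CpGs the least changed was chr12:3849797-3849798, at 91.0% (95% Wilson interval 87.6% to 93.5%) at day 0 and 83.1% (79.0% to 86.5%) at day 29, with an adjusted p of 0.00296 by Fisher's exact test. Its neighbour chr12:3849738-3849739, the second smallest loss of the locus, went from 84.8% to 76.0%. The most changed CpGs of Dnmt3a among those at 50% or more were chr12:3852785-3852786, from 51.5% to 6.2%, and chr12:3834165-3834166, from 60.9% to 8.0%. Downstream of the gene, 10 CpGs at chr12:3917800-3918208 averaged 80.9% at day 0 and 56.8% at day 29, with 60.6% in wild type, and this loss of 29.7% was the smallest of the window.

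Dnmt3b was measured mainly in the first part of the gene. Its start at chr2:153475186 lies between a stretch of 10 CpGs at chr2:153474768-153475048 and one of 67 CpGs at chr2:153475534-153477861. The first 10 averaged 27.1%, 25.4%, 18.3%, 18.2%, 18.3%, 14.0% and 8.4% from day 0 to day 29 and 6.4% in wild type. The 67 averaged 18.4%, 18.1%, 14.8%, 13.4%, 12.0%, 9.7% and 6.3%, and 4.6% in wild type. Levels within this second stretch were uneven (SD 23.0 over CpGs at day 0): in the printed 300 bases, the 20 measured CpGs averaged 2.0% before Cre, 1.9% by day 29 and 1.8% in wild type. The antisense transcript 7530422B04Rik starts on the minus strand at chr2:153476022, so these CpGs belong to both starts.
Further into Dnmt3b, 8 CpGs at chr2:153494393-153494961 averaged 48.1%, 43.4%, 36.0%, 30.2%, 26.8%, 20.2% and 12.1%, with wild type at 35.7%. The largest loss of a single CpG at 50% or more in the locus lay here, at chr2:153494749-153494750, from 60.8% (57.1% to 64.3%) to 6.4% (4.8% to 8.6%). The last 4 measured CpGs, at chr2:153498575-153498975, averaged 74.1% at day 0 and 36.0% at day 29, with 67.4% in wild type. Both lie in introns, so losses of 74.9% and 51.5% were found within the same gene. The smallest losses of single CpGs at 50% or more in Dnmt3b were at chr2:153498687-153498688, from 79.9% to 55.9%, and at chr2:153477007-153477008, from 75.2% to 46.7%. The second largest loss, at chr2:153494719-153494720, was from 53.5% to 6.9%.

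The Dnmt3l window had low CpGs at its downstream edge, where 3 CpGs near the start of Icosl averaged 1.1% at day 0, and at 3 places upstream of it. The first, 34 CpGs at chr10:77506081-77506668, surrounds the start of Aire on the opposite strand and averaged 4.7% before Cre, 1.2% by day 29 and 2.6% in wild type. The second, 16 CpGs at chr10:77511663-77512207, averaged 4.7%, 4.1%, 2.6%, 1.6%, 1.5%, 1.4% and 1.0% over the 7 days. The third, 12 CpGs at chr10:77512637-77512894 around the starts of Dnmt3l-003 and Dnmt3l-002, averaged 9.3%, 6.8%, 5.1%, 3.7%, 2.9%, 2.7% and 1.9%, and 7.9% in wild type. No CpG of the table lies within 500 bases of the start of Dnmt3l-001.
The stretches between were high at day 0. In 8 CpGs at chr10:77514525-77514943, which overlap exons 6 and 7 of Dnmt3l-001, the mean was 75.3%, 71.8%, 63.5%, 57.6%, 55.1%, 44.4% and 32.7%, with wild type at 50.1%. In 5 CpGs of an intron near the end of the gene (chr10:77524040-77524471) the level started at 76.9% and fell to 61.6% by day 8, 41.8% by day 17 and 25.5% by day 29, with wild type at 65.9%. The largest losses of single CpGs at 50% or more were chr10:77510012-77510013, from 72.7% to 10.3%, and chr10:77524456-77524457, from 75.8% to 11.1%. The smallest lay downstream of the gene, at chr10:77529728-77529729, with 75.8% (66.1% to 83.5%) before Cre and 65.5% (56.5% to 73.5%) on day 29, which did not pass the test, and at chr10:77530462-77530463, from 89.2% to 64.1%. Over the 3 loci the CpGs formed 35 stretches, single CpGs included, and the mean of each was lower on day 29 than before Cre, by 29.7% to 92.0% of its starting level.

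CpGs can be set beside CpGs of the table in the same range of day 0 level. Between 50% and 80% the median relative loss by day 29 was 60.1% over 85 CpGs of Dnmt3a, 71.1% over 19 CpGs of Dnmt3b and 59.8% over 19 CpGs of Dnmt3l, against 52.8% over the 551317 such CpGs of the table. At 80% or more it was 31.0% over 32 CpGs of Dnmt3a and 49.2% over 6 of Dnmt3l, against 26.8% in the table. The number of CpGs at 50% or more fell from 162 to 39 over the 3 loci. Over whole gene bodies the relative loss was 58.2% for Dnmt3a, 66.2% for Dnmt3b and 65.7% for Dnmt3l, and the median of 14782 protein-coding genes with at least 20 CpGs was 48.4%. These genes differ in their level at day 0.

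Wild type cells, which have TET proteins, were lower than TTKO cells at day 0 at all 3 loci. The mean level was 24.3% in wild type against 40.4% in TTKO at Dnmt3a, 10.7% against 25.4% at Dnmt3b and 17.3% against 25.3% at Dnmt3l. The difference at Dnmt3l, -8.0 points, was -5.1 points when CpGs were weighted by reads. By Fisher's exact test 245 of 454 CpGs (54.0%) were lower in wild type, against 44.7% of the table. The split was 164 of 267 at Dnmt3a (61.4%), 47 of 91 at Dnmt3b (51.6%) and 34 of 96 at Dnmt3l (35.4%), so Dnmt3l lay below the background share. In the other direction 6 CpGs were higher in wild type, against 0.907% of the table, and 2 with the added over-dispersion.

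**Figure D3:**
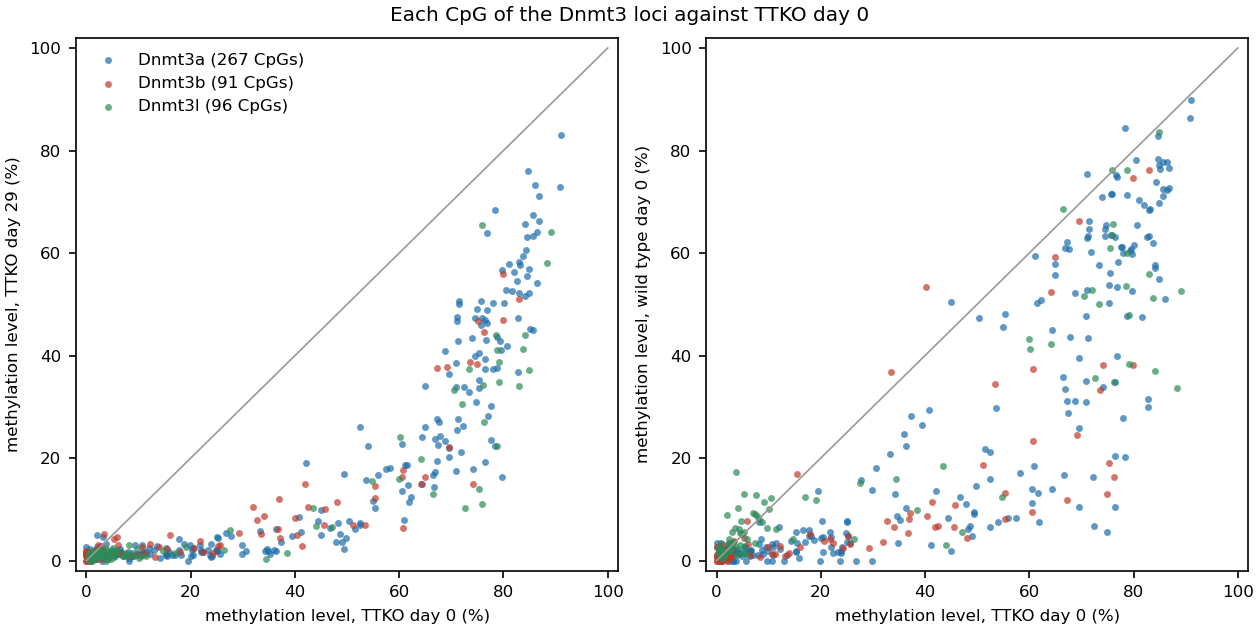
Methylation level (%) of each CpG at TTKO day 29 (left) and in wild type at day 0 (right) against TTKO day 0, with the line of equal levels. Most points lie below the line in both panels, and in wild type a group of Dnmt3l CpGs at low levels lies above it.

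At Dnmt3a the widest gap was in the intron before exon 2, at chr12:3834165-3834767, where 9 CpGs averaged 62.0% in TTKO and 13.1% in wild type. Coverage was thin in these 9 CpGs, with a median of 70 reads at day 0. All 9 were lower in wild type, and this is the stretch of 5 or more CpGs in the 3 loci that lay furthest from TTKO. Its level at day 29 was 23.1%, above wild type. The CpG chr12:3834766-3834767 was at 75.0% (61.8% to 84.8%) in TTKO, 49.1% (36.4% to 61.9%) at day 29 and 5.5% (2.2% to 13.3%) in wild type. The next widest gap of Dnmt3a was in the same stretch, at chr12:3834215-3834216, with 76.4% in TTKO and 10.5% in wild type. The CpGs of Dnmt3a furthest above TTKO in wild type, chr12:3817036-3817037 (78.4% and 84.4%) and chr12:3817429-3817430 (44.9% and 50.5%), did not pass the test. The 1 CpG of Dnmt3a that passed as higher in wild type was chr12:3891367-3891368, at 2.6% against 0.0%. It did not pass with the added over-dispersion.
At Dnmt3b the 2 CpGs furthest below TTKO in wild type lay in the long stretch after the start. They were chr2:153477860-153477861, at 75.0% against 12.9%, and chr2:153477019-153477020, at 76.2% against 16.4%. Among CpGs at 50% to 80% in TTKO the median difference was -40.3 points over 19 CpGs of Dnmt3b, -23.0 over 85 of Dnmt3a and -19.0 over 19 of Dnmt3l, against -23.0 in the table. Among those at 80% or more it was -14.4 over 32 CpGs of Dnmt3a and -34.6 over 6 of Dnmt3l, against -15.2 in the table. Wild type lay below TTKO day 29 at 42 of 91 CpGs of Dnmt3b, 68 of 267 of Dnmt3a and 14 of 96 of Dnmt3l, against 36.8% of the table, with no test. Of the 35 stretches, the wild type mean was below that of TTKO day 29 in 5 and above that of TTKO day 0 in 2. One CpG of Dnmt3b passed the test in the other direction, chr2:153494830-153494831, with 40.1% (36.1% to 44.2%) in TTKO and 53.4% (48.9% to 57.8%) in wild type.
The stretch of Dnmt3l at chr10:77511663-77512207 was higher in wild type, with a mean of 8.1% against 4.7%, and 3 of its 16 CpGs passed the test in that direction while none passed in the other. These differences were 2.7, 6.7 and 13.5 points, and with the added over-dispersion the first and second no longer passed (adjusted p = 0.111 and 0.0786, by a chi-square-type test across all CpGs). The CpG with the widest gap, chr10:77511913-77511914, had 3.8% of 133 reads in TTKO and 17.3% of 110 reads in wild type (adjusted p = 0.00131 by Fisher's exact test, and 0.00521 with over-dispersion). Downstream of Dnmt3l the CpGs furthest below TTKO in wild type were chr10:77530482-77530483, at 88.4% against 33.7%, and chr10:77530455-77530456, at 84.2% against 36.9%.

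Cre removes exons of Dnmt3a and Dnmt3b, so coverage at the loci was compared with the column total. No member CpG had its share of reads at day 29 at 50% or less of that at day 0 (log2 ratio of -1 or below; 0.000551% of the table), and none at a log2 ratio of -0.5 or below (0.497% of the table). On day 8, the shallowest column, 17 CpGs were at -0.5 or below, against 7.88% of the table (11 at Dnmt3l, 4 at Dnmt3b and 2 at Dnmt3a, the lowest at -0.93 in Dnmt3l), and on day 17 there was 1, at Dnmt3a, against 0.655% of the table. The log2 ratio averaged over days 8 to 29 had a median of 0.06 at Dnmt3a, 0.00 at Dnmt3b and 0.02 at Dnmt3l. The lowest were -0.18 at Dnmt3a (chr12:3808305-3808306), -0.23 at Dnmt3b (chr2:153475655-153475656) and -0.23 at Dnmt3l (chr10:77531949-77531950). Dnmt3l was not floxed and had the same range as Dnmt3b at the low end. The median ratio at Dnmt3a was also 0.06 in wild type, which received no Cre.

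**Figure D4:**
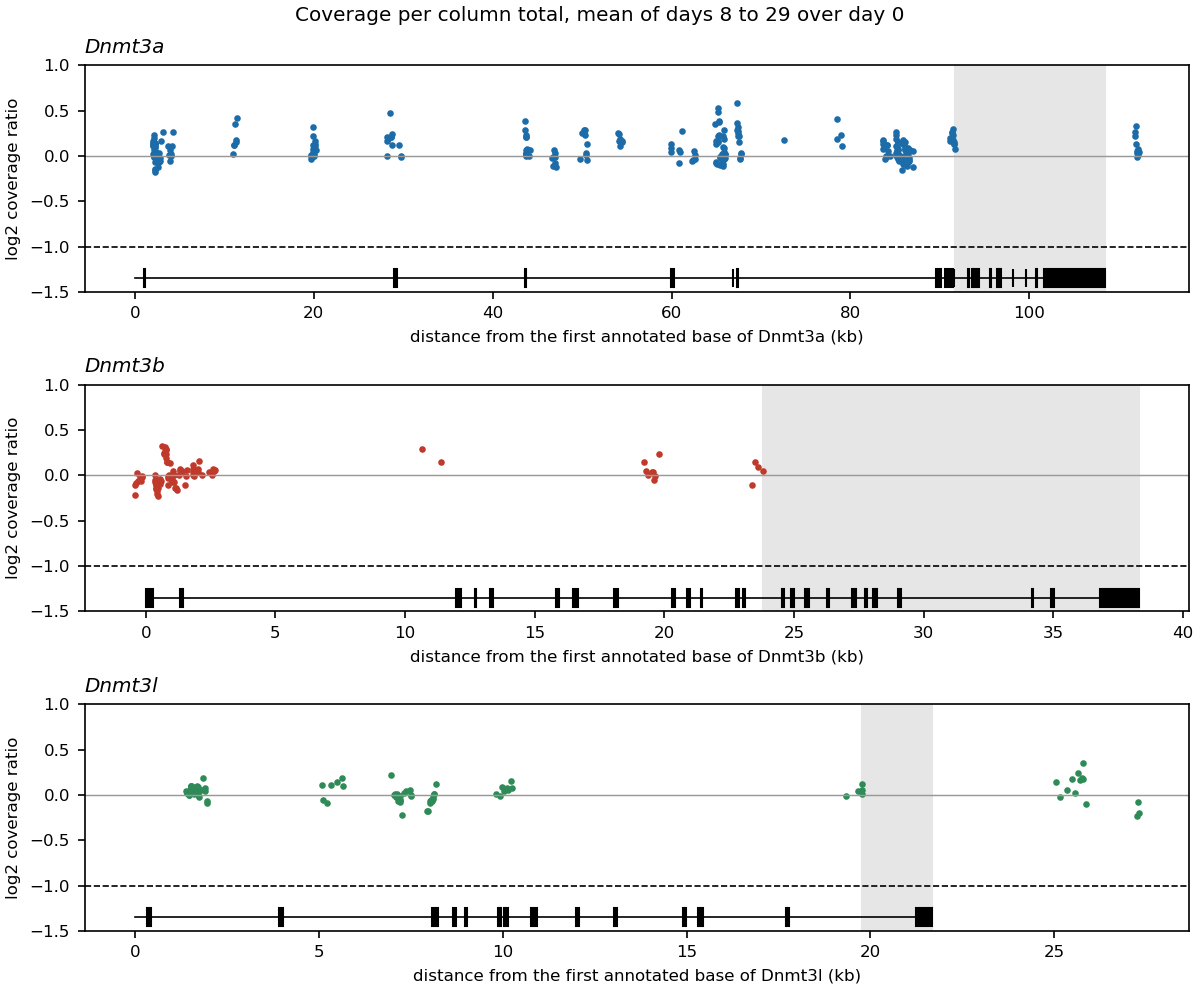
Log2 ratio of coverage per column total, averaged over days 8, 10, 13, 17 and 29, to that at day 0, for each CpG against the distance from the first annotated base of each gene (kb). The dashed line marks a log2 ratio of -1, black boxes are exons and grey is the end of the gene after the last measured CpG. All 454 points lie at -0.23 or above.

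The table holds no CpG in the 3′ part of either floxed gene, where the catalytic domain is encoded. After chr12:3897698 no CpG was measured to the end of Dnmt3a, 16745 bases with 254 CpGs in mm9 and the last 11 of the 23 exons of Dnmt3a-001. After chr2:153498975 the same held for 14491 bases with 175 CpGs and the last 11 of the 24 exons of Dnmt3b-001. Exons upstream also lacked measured CpGs, since only 4 exons of Dnmt3a-001 and 1 of Dnmt3b-001 held any, and a CpG needed 50 reads in every column to be listed. The coverage values bear only on the parts that were measured. The positions of the loxP sites are not given in the sources used here.

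Rates of de novo methylation (k_me) and of demethylation (k_de), both per day, were fitted to the 7 TTKO columns of each CpG under the study's kinetic model, in which k_me decays after Cre. Narrow ranges for both rates were reached at 140 of 267 CpGs of Dnmt3a, 45 of 91 of Dnmt3b and 36 of 96 of Dnmt3l, 48.7% of the members against 44.8% of the table. Over the CpGs of Dnmt3a that passed, the median log2 k_de was -4.23 and ran from -6.84 to -2.58. It was -3.95 at Dnmt3b, -4.09 at Dnmt3l and -4.78 in the table. The median log2 k_me was -3.54 at Dnmt3a, -3.95 at Dnmt3b and -3.40 at Dnmt3l, against -3.81 in the table. None of the 138 member CpGs under 5% at day 0 passed, so the rates leave these out. Of those at 5% to 20%, 21 of 77 passed, and of those at 20% to 50%, 64 of 77.

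**Figure D5:**
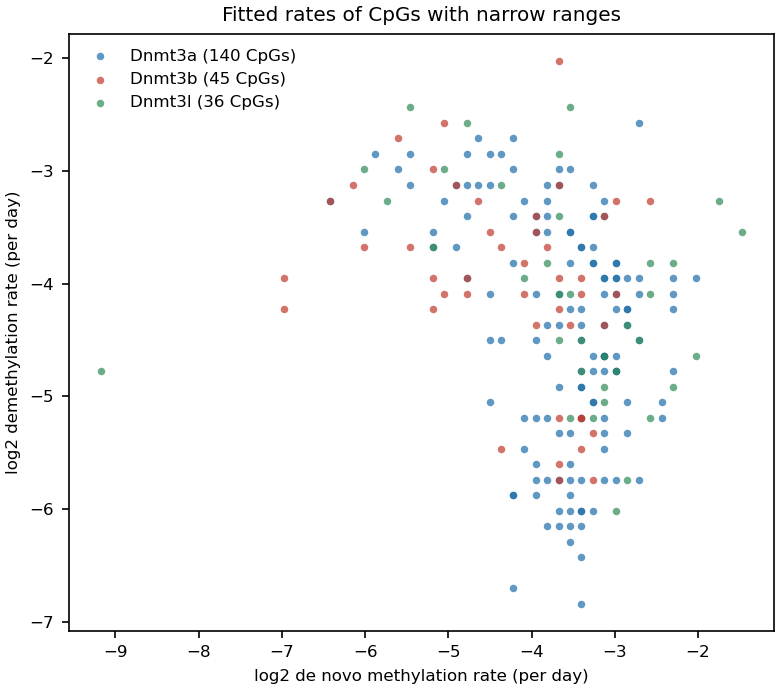
Log2 of the fitted demethylation rate against log2 of the fitted de novo methylation rate, both per day, for the 221 CpGs of the loci with narrow ranges. The 3 loci overlap, and log2 demethylation rates run from -6.84 to -2.03.

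Within the range of 50% to 80% at day 0, the median log2 k_de was -4.64 over 71 CpGs of Dnmt3a, -4.36 over 18 of Dnmt3b and -4.50 over 18 of Dnmt3l, against -4.91 in the table. The median log2 k_me in that range was -3.26, -3.40 and -3.13 at the 3 loci, against -3.54 in the table. In this range both medians were above the table's at each locus, whereas over all CpGs with narrow ranges the k_me of Dnmt3b was below it. No test was run on the rates. The lowest k_de of a Dnmt3a stretch with 5 or more fitted CpGs lay at exon 3 (median log2 of -6.01), and the highest at the intron stretch at chr12:3870845-3872011 (-3.13).

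Other genes of DNA methylation were measured in the same way, over the gene body and 2000 bases on either side. They were Dnmt1 (the maintenance enzyme), Uhrf1 (its cofactor), Tet1, Tet2, Tet3 and Tdg (a glycosylase that removes oxidised methylcytosine). Over these genes, 425 of 854 CpGs (49.8%) were lower at day 29 and 310 (36.3%) were lower in wild type. The shares were 68.9% and 54.0% at the Dnmt3 loci, and 59.3% and 44.7% in the whole table. Among CpGs of these genes at 50% or more at day 0, the median loss ran from 39.1% (Tdg) to 62.4% (Uhrf1). It was 48.5% at Dnmt3a, 69.6% at Dnmt3b and 56.2% at Dnmt3l. Tet3 had the highest share lower at day 29 (83.7%) and the highest level at day 0 (62.1%), and Uhrf1 the lowest share (28.7%) and level (15.6%).
The protein-coding genes with the mean levels most like those of the members, by Euclidean distance over the 8 columns, were Adck4 (1.67 points), Cpne5 (1.82) and Ccdc88c (1.94) for Dnmt3a. For Dnmt3b they were Tcf19 (1.12), Fam81a (1.33) and Trim72 (1.34), and for Dnmt3l Elf3 (1.68), Gal3st3 (2.00) and Calr3 (2.18).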

How the data were processed

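Capture libraries (SureSelect Mouse Methyl-Seq) were bisulfite converted, sequenced and aligned to mm9 by the authors with QuasR, whose versions are not given in the sources used here. The deposited table gives, per CpG and column, the read count (coverage) and the methylation level in percent. The authors joined the 3 replicates of each group. The paper gives a minimum coverage of 50 over time points and replicates, while the lowest coverage of each joined column was itself 50. The authors' fitted rates, their confidence and TET activity in that table were not used. Methylated reads were recovered as coverage times percent, rounded to whole reads.

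Fisher's exact test (two-sided, numba 0.67.0, checked on simulated data) was run on all CpGs for each later day and for wild type against TTKO day 0, with a Benjamini-Hochberg adjusted p under 0.05; it compares joined libraries and ignores spread between replicates. Wilson intervals (95%) cover counting error only. Coverage was divided by the column total. Rates were fitted on a grid of 6400 combinations with a decay of k_me (k_E) of 0.5 per day, a share of 8% unchanged cells at day 0 levels and 0.25% error each way; narrow means a 95% range under 2 on the log2 scale for both rates and a border probability under 0.08. Annotation was GENCODE M1 on mm9, and all 454 member CpGs are CG there. Alternatives were a coverage of 100 reads, a difference of 10 points, an over-dispersion of 0.0055 (from the authors' amplicon model; they used a plain binomial for the capture data), gene bodies only, read weighting, other coverage scalings and references, and other rate settings.

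Single CpGs named are, per gene, the 2 with the largest and smallest relative loss among those at 50% or more, the 2 furthest from TTKO in each direction in wild type and the 2 with the lowest coverage ratio; stretches and CpGs called higher were added after their values were seen. The members and lists were chosen with earlier results of these data known. The amplicon tables (405 CpGs) hold 0 CpGs in the windows.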

Additional observations from a re-analysis of the deposited data

How the results depend on the processing

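Every replicate was joined before deposit, so leaving out a replicate could not be run. No paired analysis was possible because each group is 1 joined column. The planned amplicon tests were not run, as no amplicon CpG lies in the windows. Of 228 values under alternatives, 183 stayed within the set margin and 45 moved. Direction was judged only for differences in mean level, and none of these changed sign. The margin for counts was wide: 196 CpGs lower on day 10 against 138 when 10 points were required lay within it. With an over-dispersion of 0.0055, borrowed from the model for amplicon data and not measured here, the CpGs lower over the 3 loci were 0 at day 4 in place of 4, and 35 at day 8 in place of 75; the CpG higher at day 29 was lost (0), as it was when a difference of 10 points was required (0), and the CpGs higher in wild type went from 6 to 2 under either. Weighting the mean by reads gave differences from day 0 in points of -1.1 (day 4), -2.8 (day 8), -7.3 (day 10), -9.7 (day 13), -13.7 (day 17), -18.8 (day 29) and -11.8 (wild type); within gene bodies only, wild type differed by -13.5 points. Requiring 10 points cut the lower CpGs at Dnmt3l from 17 to 9 on day 8, 52 to 28 on day 10, 52 to 32 on day 13, 56 to 34 on day 17 and 58 to 35 on day 29. At Dnmt3l the day 8 difference became -0.9 points when weighted by reads, in place of -5.4. The cause was not tested.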

Other observations

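The starts of neighbouring genes given here averaged under 10% in every column. The 10 CpGs within 500 bases of the start of AC159324.1, a miRNA gene inside Dnmt3a, averaged 9.2% at day 0, 9.9% on day 4 and 1.4% on day 29, with 1.8% in wild type. The 34 CpGs within 500 bases of the start of Aire, a transcription factor gene on the opposite strand beside Dnmt3l, averaged 4.7% before Cre, 2.2% by day 13 and 1.2% by day 29, with 2.6% in wild type. The 46 CpGs near the start of the antisense transcript 7530422B04Rik averaged 5.3% before Cre, 2.1% by day 29 and 1.7% in wild type. The 3 CpGs at the edge of the Dnmt3l window near the start of Icosl averaged 1.1% at day 0 and 0.6% at day 29.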
